A study of Mus musculus with 12 samples.

Results

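The prostaglandin and leukotriene receptors examined here are 9 genes, Ptger4, Ptgir, Ptger2, Ptgdr, Ptger3, Ptgdr2, Cysltr1, Cysltr2 and Ltb4r1, chosen by symbol from the 53801 genes of the count table. The RNA came from mouse eosinophils of the bone marrow and of the blood, sequenced as 12 libraries in 4 groups of 3. The Atg5-knockout libraries came from Atg5flox/flox eoCre Il5tg mice, in which Cre recombinase was knocked in at the Epx gene (eosinophil peroxidase) and was used in heterozygous form, so that Atg5 was deleted in the eosinophil lineage. The control libraries came from eoCre Il5tg mice. All 12 libraries thus share the Cre allele at Epx and the Il5 transgene, which is driven by the T cell gene Cd3d and raises eosinophil numbers throughout the body, and none of them came from a mouse without the transgene. Bone marrow eosinophils were enriched by removing other leukocytes with antibodies, among them antibodies to CD8a, CD90.2 and Ly6G. Blood eosinophils went through a density gradient and a lysis of red cells in water before the same removal, so that tissue and isolation procedure cannot be told apart. Ages and sexes of the mice used for sequencing were not given in the sources used here. The design names 3 mice of each genotype, but nothing states that blood and bone marrow libraries of one number came from one mouse, and p-values measure the spread between these libraries only. The libraries held 18885052 to 30270166 counts, of which the 9 receptors together took 0.0233% to 0.0437%. Control blood replicate 1 stood apart, with 14.6% of its counts in 13 red cell genes against 0.422% to 1.42% in the other blood libraries, and some values are also given without it.

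Prostaglandins and leukotrienes are lipid mediators made from arachidonic acid that act on G protein-coupled receptors at the cell surface. The receptors for prostaglandin E2 encoded by Ptger2 and Ptger4, the prostacyclin receptor encoded by Ptgir and the prostaglandin D2 receptor encoded by Ptgdr couple to Gs and raise cyclic AMP, which generally restrains granulocytes. Ptger3, another receptor for prostaglandin E2, and Ptgdr2, also known as CRTH2, couple to Gi. Ptgdr2 and Ltb4r1, the high-affinity receptor for leukotriene B4, are known as chemoattractant receptors of eosinophils, and Cysltr1 and Cysltr2 bind the cysteinyl leukotrienes that eosinophils themselves release.

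Levels are given in CPM, counts scaled to a library of 1000000 after correction with TMM factors. Across the 12 libraries the 9 receptors fell into 3 tiers of expression. Ltb4r1 was by far the most abundant, Ptger4 and Ptgir followed at intermediate levels, and the other 6 had at most 1.25 CPM per kilobase of exon in any library. Ptger4, Ptgir and Ptger2, which couple to Gs, were lower in blood than in bone marrow eosinophils in both genotypes. Of all tested genes 18% were lower in control and 24.1% in Atg5-knockout blood. The Gs-coupled Ptgdr had too few counts to be tested. Beside these 9, the eicosanoid receptor gene Ltb4r2 was also lower and Ptger1 higher in blood in both genotypes. No receptor passed the adjusted threshold between Atg5-knockout and control eosinophils in either tissue, and Ptger4 came nearest, lower in Atg5-knockout bone marrow and higher in Atg5-knockout blood. In bulk RNA, fewer cells of a type and less RNA per cell cannot be told apart.

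**Figure D1:**
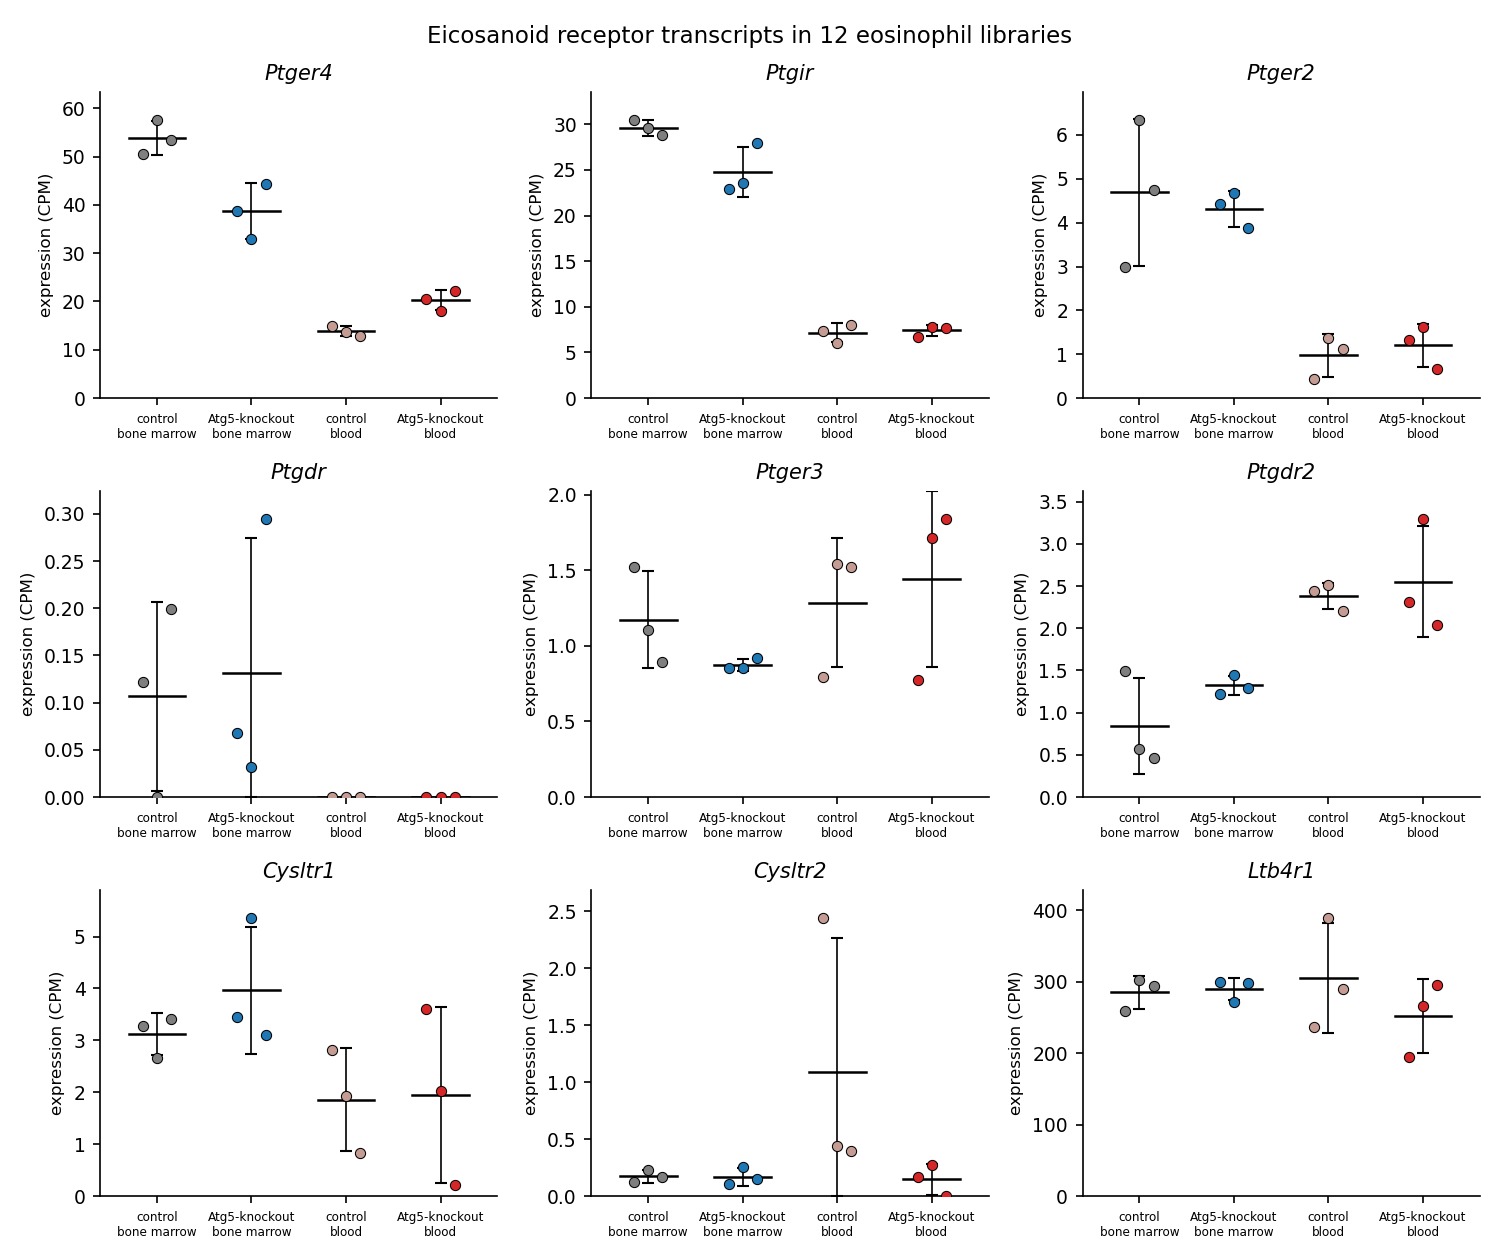
Expression in CPM (counts scaled to a library of 1000000, with TMM factors) of each of the 9 receptors on the vertical axis, in control and Atg5-knockout eosinophils from bone marrow and blood on the horizontal axis. Each point is 1 library, with the mean and SD of 3 libraries (cut at 0) beside them, and the bone marrow libraries of Ptger4, Ptgir and Ptger2 lie above all blood libraries, whereas those of Ptgdr2 lie below them. The share of all tested genes with such a separation is not reported here.

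The stretches of 250 bases before the transcription start of the 4 receptors that differed between the tissues in at least 1 genotype are shown here, since 3 of them moved together and the remaining one, Ptgdr2, moved the other way. They were taken from RefSeq on GRCm38.p6, in which 8 of the 9 receptors had an entry and Cysltr1 had none. Capitals mark the GC box (GGGCGG, or CCGCCC on the other strand), the CCAAT box (CCAAT or ATTGG) and the GATA site (GATAA or TTATC).
Ptger4, chr15:5244188-5244437, minus strand: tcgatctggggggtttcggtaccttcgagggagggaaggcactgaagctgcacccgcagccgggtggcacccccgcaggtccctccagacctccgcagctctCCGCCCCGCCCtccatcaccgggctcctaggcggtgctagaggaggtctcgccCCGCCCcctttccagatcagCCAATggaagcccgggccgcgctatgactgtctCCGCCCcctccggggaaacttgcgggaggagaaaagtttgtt
Ptgir, chr7:16906240-16906489, plus strand: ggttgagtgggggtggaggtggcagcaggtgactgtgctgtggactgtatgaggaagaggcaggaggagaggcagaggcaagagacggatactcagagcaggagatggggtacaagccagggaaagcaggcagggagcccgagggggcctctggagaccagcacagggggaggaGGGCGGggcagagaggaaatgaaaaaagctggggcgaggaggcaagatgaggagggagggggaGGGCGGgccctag
Ptger2, chr14:44987861-44988110, plus strand: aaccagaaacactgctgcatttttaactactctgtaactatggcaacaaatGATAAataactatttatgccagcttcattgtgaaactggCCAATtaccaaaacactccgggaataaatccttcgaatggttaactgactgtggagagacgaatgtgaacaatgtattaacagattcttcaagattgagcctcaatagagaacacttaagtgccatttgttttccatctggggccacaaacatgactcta
Ptgdr2, chr19:10936910-10937159, plus strand: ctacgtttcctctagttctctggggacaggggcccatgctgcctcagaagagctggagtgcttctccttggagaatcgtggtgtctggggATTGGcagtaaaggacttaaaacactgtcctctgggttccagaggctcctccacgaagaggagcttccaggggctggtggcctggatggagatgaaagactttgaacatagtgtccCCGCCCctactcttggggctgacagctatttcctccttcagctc

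The promoters of Ptger4 and Ptgir were rich in G and C, at 66.8% and 63.6% of bases against a median of 52.4% over the 32851 promoter stretches of the same length, whereas that of Ptger2 held 38.0% and that of Ptgdr2 55.2%. The GC box, which Sp1 family proteins bind, occurred 4 times before Ptger4, 2 times before Ptgir and once before Ptgdr2 and was absent from the stretch before Ptger2. It is found in 32.7% of all promoter stretches. Before Ptger4, 2 of the GC boxes overlapped by 1 base. The CCAAT box was present once before each of Ptger4, Ptger2 and Ptgdr2, and in 33.8% of all stretches. Of the 8 receptors, only Ptger2 held a GATA site, which 22.6% of all stretches hold. The half-site TGACG of the cAMP response element, or its reverse complement CGTCA, occurred in none of the 8 stretches and in 17.8% of all. The ETS-type motif GAGGAA, or its reverse complement TTCCTC, occurred before 4 of the 8 receptors, 2 times each before Ptgir and Ptgdr2, and before 23.3% of all starts. The shorter ETS core GGAA was not counted. These matches describe letters in a window of fixed length, and none of the motifs searched was shared by all of Ptger4, Ptgir and Ptger2.

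Ptger4 lies on chromosome 15 from 5206661 to 5244187 on the minus strand (GRCm38), with 6648 bases of exon. In control bone marrow it had 50.5, 57.6 and 53.4 CPM in the 3 libraries, and in control blood 15.01, 13.8 and 12.9 CPM. The means were 53.8 ± 3.55 and 13.9 ± 1.07 CPM (SD, n = 3), and the 2 sets of libraries lay far apart. Its log2 fold change, blood against bone marrow, was -1.97 (SE 0.16), with an adjusted p of 5.78e-05 in the quasi-likelihood test of edgeR. In Atg5-knockout eosinophils Ptger4 had 38.7, 32.8 and 44.4 CPM in bone marrow and 20.6, 18.1 and 22.1 CPM in blood. Again no blood library reached a bone marrow library, at a log2 fold change of -0.92 (SE 0.16, adjusted p = 0.00156 from edgeR). Of its exon bases 1.23% are shared with Ttc33 on the other strand, and Ttc33 itself had log2 fold changes of -0.45 and -0.48 between the tissues, neither past the threshold. A further 15.3% are shared with Gm15937 on the other strand, which had no count. Reads that touch both genes were counted for neither, so this does not show that Gm15937 was silent.

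The prostacyclin receptor gene Ptgir lies on chromosome 7 from 16906490 to 16910905 on the plus strand (GRCm38), with 3334 bases of exon that no other gene overlaps. Control bone marrow libraries had 30.5, 29.6 and 28.8 CPM and control blood libraries 7.38, 6.07 and 8.05 CPM. Atg5-knockout bone marrow libraries had 22.9, 23.6 and 27.9 CPM and Atg5-knockout blood libraries 6.73, 7.77 and 7.72 CPM. Every blood library thus lay well below every bone marrow library, in both genotypes. On the log2 scale Ptgir fell by 2.06 (SE 0.19, adjusted p = 0.00011 from edgeR) in control and by 1.73 (SE 0.17, adjusted p = 7.79e-05 from edgeR) in Atg5-knockout eosinophils, which left blood with 0.242 and 0.299 times the bone marrow level. The groups did not overlap in any of the tissue comparisons of Ptger4, Ptgir and Ptger2. The share of all tested genes without overlap between the tissues is not reported here, so such a separation cannot be taken to set any receptor apart. Between the tissues 34.2% of all tested genes were called in control and 47.6% in Atg5-knockout eosinophils.

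Ptger2, the other Gs-coupled prostaglandin E2 receptor gene, lies on chromosome 14 from 44988195 to 45003820 on the plus strand (GRCm38) and had 0.903 CPM per kilobase in control bone marrow, where Ptger4 had 8.10. Its counts were low, with 98, 167 and 143 counts in control bone marrow against 7, 31 and 23 in control blood, and 130, 148 and 105 in Atg5-knockout bone marrow against 31, 36 and 13 in Atg5-knockout blood. In CPM the control means were 4.69 ± 1.68 in bone marrow and 0.973 ± 0.487 in blood (SD, n = 3), and the Atg5-knockout means 4.32 ± 0.411 and 1.21 ± 0.492 (SD, n = 3). All blood libraries were lower than all bone marrow libraries of their genotype. Ptger2 fell by 2.26 (SE 0.50, adjusted p = 0.00851 from edgeR) in control and by 1.82 (SE 0.37, adjusted p = 0.00378 from edgeR) in Atg5-knockout eosinophils on the log2 scale.

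Ptgdr, the remaining Gs-coupled receptor, lies on chromosome 14 from 44851235 to 44859375 on the minus strand (GRCm38) and was close to the limit of detection. It had 4, 0 and 6 counts in the control and 2, 1 and 8 counts in the Atg5-knockout bone marrow libraries, and none in the 6 blood libraries. A count of 0 allows up to 0.0504 CPM over the control and 0.0461 CPM over the Atg5-knockout blood libraries (3 counts over the group, counting error only), against 0.112 and 0.1247 CPM over the bone marrow groups. Ptgdr did not pass the filter on low counts and was not tested, and 22.1% of its exon bases are shared with the antisense gene Gm16976. Cysltr2 did not pass the filter either, so that 7 of the 9 receptors were tested in each comparison.

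Ptgdr2, whose product couples to Gi and draws eosinophils towards prostaglandin D2, lies on chromosome 19 from 10937160 to 10942511 on the plus strand (GRCm38). Control bone marrow libraries had 1.49, 0.570 and 0.464 CPM and control blood libraries 2.44, 2.51 and 2.21 CPM. Atg5-knockout bone marrow libraries had 1.23, 1.45 and 1.29 CPM and Atg5-knockout blood libraries 2.32, 3.30 and 2.04 CPM. In both genotypes every blood library was above every bone marrow library, although bone marrow control replicate 1 stood apart from the other 2. Ptgdr2 rose by 0.96 (SE 0.34) in Atg5-knockout eosinophils on the log2 scale (adjusted p = 0.0444 from edgeR), and its log2 fold change of 1.48 (SE 0.51) in control eosinophils missed the threshold (adjusted p = 0.0522 from edgeR). Neither call was firm. Without Atg5-knockout blood replicate 2 the adjusted p in Atg5-knockout eosinophils was 0.138, without any 1 of the 3 Atg5-knockout bone marrow replicates it lay between 0.12 and 0.154, and in control eosinophils 8 of 15 alternatives passed the threshold. Of the 2644 exon bases of Ptgdr2, 1031 (39.0%) are shared with Ccdc86 on the other strand. Reads that touch both genes are absent from the counts, strand was not used in the counting, and Ccdc86 itself was higher in blood, by 0.92 (SE 0.16, adjusted p = 0.0031 from edgeR) in control and 1.02 (SE 0.15, adjusted p = 0.000568) in Atg5-knockout eosinophils. The part of Ccdc86 in the values of Ptgdr2 was not tested.

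The receptors that did not differ between the tissues at the threshold were Ltb4r1, Ptger3 and Cysltr1. Ltb4r1 had 259, 302 and 294 CPM in control bone marrow and 237, 390 and 289 CPM in control blood, and 300.2, 272 and 298 CPM in Atg5-knockout bone marrow and 195, 266 and 295 CPM in Atg5-knockout blood. The 4 groups overlapped throughout, with log2 fold changes between blood and bone marrow of 0.09 (SE 0.20) in control and -0.19 (SE 0.16) in Atg5-knockout eosinophils. When libraries were scaled by total counts alone, with or without red cell genes, the value in Atg5-knockout eosinophils was -0.43 (adjusted p = 0.0191 and 0.0188 from edgeR), where the median of all genes was itself shifted by -0.24. Ptger3, whose product counteracts cyclic AMP, lies on chromosome 3 from 157566892 to 157645888 and had between 13 and 50 counts per library. Its means were 1.17 ± 0.319 and 0.875 ± 0.0399 CPM in control and Atg5-knockout bone marrow and 1.29 ± 0.426 and 1.44 ± 0.584 CPM in blood (SD, n = 3), with log2 fold changes of 0.13 (SE 0.46) and 0.73 (SE 0.45). Cysltr1, the target of the antagonist montelukast, lies on chromosome X from 106574346 to 106603679 and had means of 3.12 ± 0.403 CPM in control and 3.97 ± 1.22 CPM in Atg5-knockout bone marrow, and of 1.86 ± 0.988 and 1.95 ± 1.70 CPM in blood (SD, n = 3).

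Within blood, Cysltr1 varied widely among replicates. It had 46, 44 and 17 counts in the control and 84, 45 and 4 counts in the Atg5-knockout libraries. Its log2 fold changes between the tissues were -0.76 (SE 0.46) and -0.999 (SE 0.70). They passed the threshold only without control blood replicate 1 (-1.17, adjusted p = 0.0462 from edgeR) or without Atg5-knockout blood replicate 1 (-1.78, adjusted p = 0.0367). Those 2 libraries held the highest shares of B cell and T cell genes of their groups, 0.0462% and 0.102% of counts for the 10 B cell genes, against at most 0.00425% in the other 4 blood libraries, and 0.0164% and 0.0296% for the 10 T cell genes. The part of these cells in the values of Cysltr1 was not tested.

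Cysltr2, the other receptor of cysteinyl leukotrienes, lies on chromosome 14 from 73025603 to 73049114 and had 40, 10 and 8 counts in control blood and between 0 and 8 counts in each of the other 9 libraries. Control blood replicate 1 alone held 40 of its 58 counts in that group, and without that library the group mean was 0.416 CPM, where the bone marrow control mean was 0.172 ± 0.0534 CPM (SD, n = 3). DESeq2, which applied no such filter, gave a log2 fold change between control blood and bone marrow of 2.67 (SE 0.96, adjusted p = 0.0224). The edgeR value without control blood replicate 3 was 3.02 (SE 0.85). There Cysltr2 passed the filter only through the 40 and 10 counts of the remaining control blood libraries. That fit is therefore no separate support for a higher level in blood. Control blood replicate 1 is also the library rich in red cell genes, and its platelet genes took the highest share of any library, 0.0410%. Their part in the Cysltr2 counts was not tested.

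Counted together, 3 of the 7 tested receptors were lower and 0 higher in control blood, where 18% of all tested genes were lower and 16.2% higher. In Atg5-knockout eosinophils 3 were lower and 1 higher, where 24.1% of all tested genes were lower and 23.5% higher. In both directions together, 42.9% of the tested receptors and 34.2% of all tested genes passed in control eosinophils, and 57.1% and 47.6% in Atg5-knockout eosinophils. Without control blood replicate 1, 5926 of 14099 tested genes passed in control eosinophils, where 4678 of 13669 did with it. The median log2 fold change of the tested receptors was -0.76 in control and -0.92 in Atg5-knockout eosinophils, beside medians of -0.0029 and -0.010 over all tested genes. All calls of Ptger4, Ptgir and Ptger2 passed in each of the 15 alternatives per genotype. Their log2 fold changes over these ranged from -2.28 to -1.91 in control and from -1.14 to -0.82 in Atg5-knockout eosinophils for Ptger4, and from -2.37 to -1.95 and from -1.96 to -1.65 for Ptgir. With the fold threshold of the study, a log2 fold change beyond 2, Ptgir and Ptger2 passed in control and no receptor in Atg5-knockout eosinophils.

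**Figure D2:**
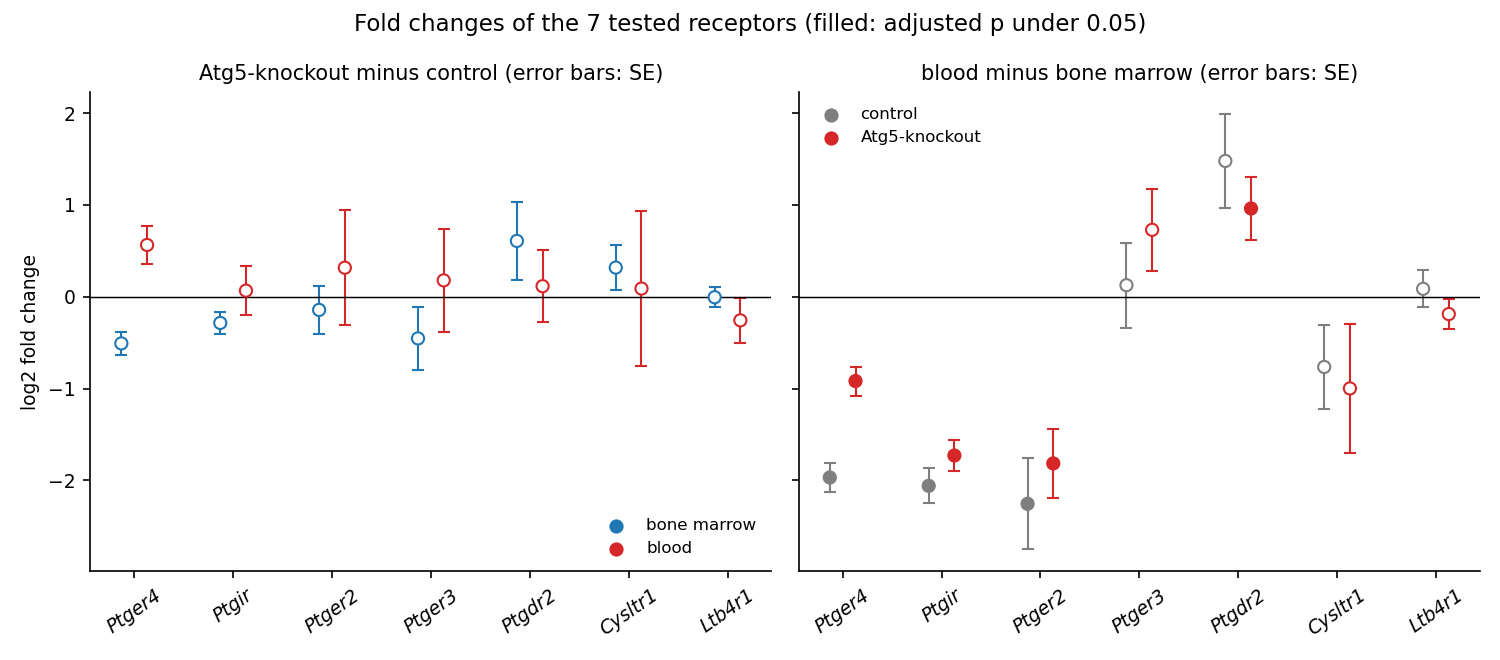
Log2 fold change on the vertical axis for the 7 tested receptors on the horizontal axis, with Atg5-knockout against control in each tissue on the left and blood against bone marrow in each genotype on the right. Points are estimates of edgeR and bars their standard error, and filled points have an adjusted p under 0.05, namely those of Ptger4, Ptgir and Ptger2 in both genotypes, all under 0, and Ptgdr2 in Atg5-knockout eosinophils, above 0.

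These tissue differences came with differences in the shares of marker genes between the libraries. All 10 eosinophil markers were detected in every group, and they took 8.42 ± 0.596% and 9.53 ± 0.788% of counts in control and Atg5-knockout bone marrow and 3.09 ± 0.909% and 2.46 ± 0.573% in blood (SD, n = 3). The most abundant of them was Prg2, the major basic protein gene, with means of 45204 and 50996 CPM in bone marrow and 16279 and 10947 CPM in blood. The members went both ways, and the means of 2 of the 10 were higher in blood in both genotypes. These surface receptor genes, named after their values were seen, were Siglecf, with 442 and 379 CPM in bone marrow and 850 and 759 CPM in blood, and Ccr3, with 992 and 719 CPM and 1576 and 1513 CPM. The 10 genes of progenitors and the cell cycle, among them Mki67 and Top2a, took 0.177 ± 0.0108% and 0.218 ± 0.0241% in bone marrow and 0.0111 ± 0.00341% and 0.00931 ± 0.00426% in blood (SD, n = 3). The 12 neutrophil genes took 2.90% and 2.92% in bone marrow and 1.53% and 1.55% in blood on average. The members of this list went both ways. Mpo, a gene of early granulocyte precursors that is among the genes most like Ptgir, had 1154 and 1317 CPM in bone marrow and 7.96 and 6.56 CPM in blood, whereas the means of 2 of the 12 genes were higher in blood in both genotypes. These were Retnlg, with 4752 and 4177 CPM in bone marrow and 6676 and 6581 CPM in blood, and Mmp8, with 87.1 and 86.8 CPM and 106 and 105 CPM. Natural killer and innate lymphoid genes moved the other way, with means of 0.000666% and 0.000841% in bone marrow and 0.0354% and 0.0423% in blood. The T cell markers Cd3e and Themis had no count in bone marrow. The 11 monocyte and macrophage genes lay between 0.313% and 0.372% in all 12 libraries. The part of these cells in the lower Ptger4, Ptgir and Ptger2 of blood was not tested. The 10 basophil and mast cell genes took 0.0466% to 0.0572% of counts in bone marrow and 0.0203% to 0.0417% in blood. With 3 against 3 libraries the exact two-sided permutation test of a list's share cannot give a p under 0.1, and none of the 40 tests of 10 lists did.

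**Figure D3:**
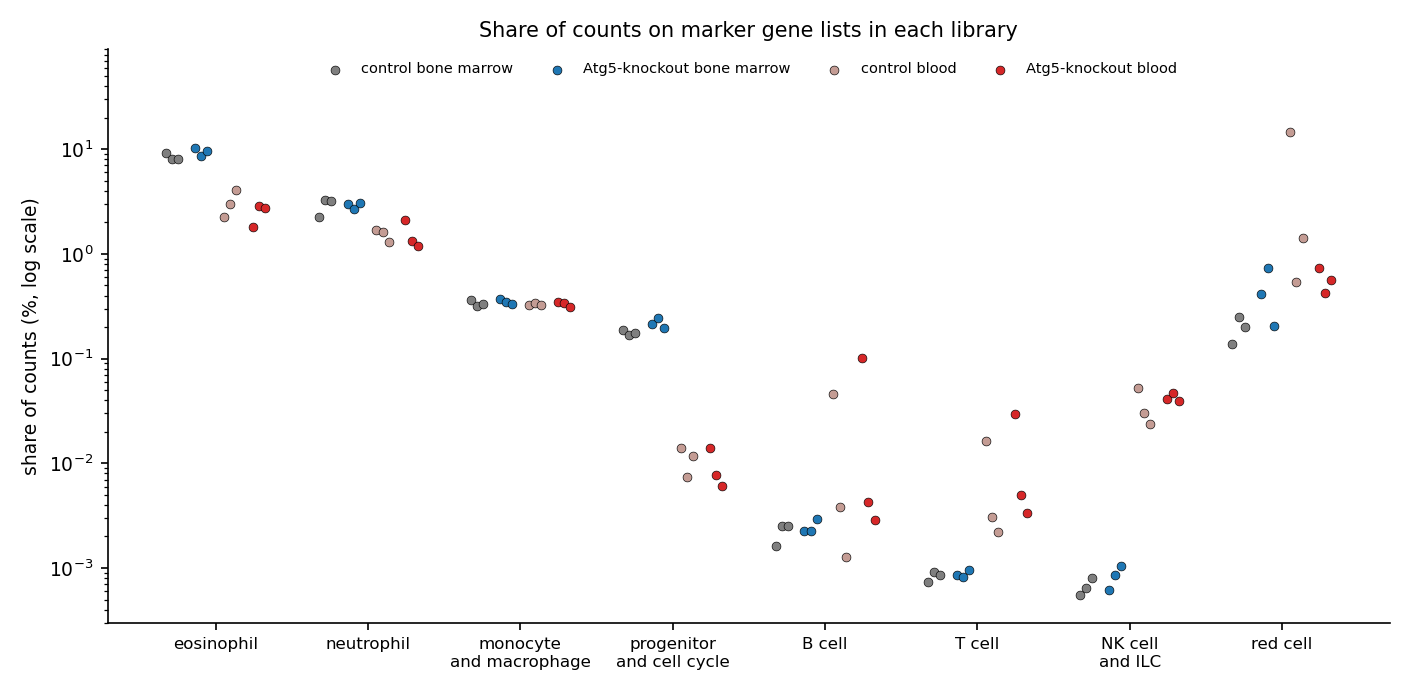
Share of all counts, in percent on a log axis, taken by 8 lists of marker genes on the horizontal axis, with 1 point per library coloured by tissue and genotype. Genes of progenitors and the cell cycle sit between 0.167% and 0.243% in bone marrow, against 0.00603% to 0.0141% in blood, and control blood replicate 1 stands out at 14.6% for red cell genes.

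The comparison of genotypes asked whether deletion of Atg5 altered the receptors within a tissue. Atg5 itself, counted over all its exons, had 42.5 ± 2.62 CPM in control and 32.0 ± 1.74 CPM in Atg5-knockout bone marrow, and 48.1 ± 9.62 and 47.2 ± 9.12 CPM in blood (SD, n = 3). Such a sum over the exons cannot show whether some of them were deleted. In bone marrow 0 of the 7 tested receptors passed the threshold, where 0.348% of all tested genes did (48 genes, but 219 without control replicate 1, 18 without control replicate 3 and 191 in DESeq2). Of the 7, 2 had an unadjusted p under 0.05 in edgeR, Ptger4 and Ptgir, as did 1333 of all 13781 tested genes. In blood the count was 0 of 7, where 0.0371% of all tested genes passed. There 1 of the 7, Ptger4, had an unadjusted p under 0.05, as did 347 of all 13460 tested genes.

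Ptger4 had 38.7, 32.8 and 44.4 CPM in Atg5-knockout against 50.5, 57.6 and 53.4 CPM in control bone marrow, so that all Atg5-knockout libraries were lower. The log2 fold change was -0.51 (SE 0.13), with an unadjusted p of 0.00178 and an adjusted p of 0.167 from edgeR. DESeq2 gave -0.52 with an adjusted p of 0.0256, and edgeR without the filter on low counts one of 0.00548. In the other 13 alternatives the adjusted p of Ptger4 lay above the threshold, and over all 15 the log2 fold change lay between -0.62 and -0.40. The genes of progenitors and the cell cycle took 0.195% to 0.243% of counts in the Atg5-knockout and 0.167% to 0.188% in the control bone marrow libraries, without overlap (exact permutation test, p = 0.1, the smallest that 3 against 3 libraries allow). Their part in the value of Ptger4 was not tested. Ptgir, with 22.9, 23.6 and 27.9 CPM against 30.5, 29.6 and 28.8 CPM, was also lower in every Atg5-knockout library, at a log2 fold change of -0.29 (SE 0.12, adjusted p = 0.451 from edgeR). Groups that do not overlap were found in 2 of the 7 tested receptors and in 14.4% of all tested genes of bone marrow.

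In blood Ptger4 took the opposite direction, with 20.6, 18.1 and 22.1 CPM in Atg5-knockout against 15.01, 13.8 and 12.9 CPM in control libraries. All 3 Atg5-knockout libraries were higher, by 0.56 on the log2 scale (SE 0.21, unadjusted p = 0.0257, adjusted p = 1 from edgeR). Over the 15 alternatives the log2 fold change lay between 0.49 and 0.65 and the adjusted p was at least 0.404. Of the 7 tested receptors only Ptger4 had groups that do not overlap in blood, as did 7.58% of all tested genes. The difference of the genotype effect between the tissues was 1.02 for Ptger4 on the log2 scale (SE 0.21, unadjusted p = 0.000305). It did not pass adjustment over all 14712 genes in edgeR (adjusted p = 0.739), and DESeq2 gave 1.05 with an adjusted p of 0.0344. In this test edgeR called 0% of all genes, 740 having an unadjusted p under 0.05, and DESeq2 called 11 genes.

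None of the other receptors had an unadjusted p under 0.05 in either tissue, apart from Ptgir in bone marrow. Ptgir in blood had a log2 fold change of 0.07 (SE 0.27). Ptger2 had -0.14 (SE 0.26) in bone marrow and 0.32 (SE 0.63) in blood, and Ptger3 had -0.45 (SE 0.34) and 0.18 (SE 0.56). The chemoattractant receptor genes also gave small or imprecise values. For Ltb4r1 they were -0.01 (SE 0.11) in bone marrow, where the mean of CPM was 1.02 times that of control, and -0.26 (SE 0.24) in blood. Ptgdr2 had 0.61 (SE 0.43) in bone marrow, but 1.32 without control bone marrow replicate 1 and 0.31 without control replicate 3, and 0.12 (SE 0.39) in blood. Cysltr1 had 0.32 (SE 0.25) in bone marrow and 0.09 (SE 0.85) in blood, where the sign turned in 4 alternatives. Cysltr2 could not be tested in edgeR, and its blood libraries did not overlap, with 2.44, 0.440 and 0.393 CPM in control and 0.171, 0.271 and 0 CPM in Atg5-knockout libraries. DESeq2 gave a log2 fold change of -2.85 there (SE 1.17, adjusted p = 1), and without control blood replicate 1, chosen after seeing the data, the control mean was 0.416 CPM. A value that misses the threshold does not show equal expression.

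Compared per kilobase of exon, the 3 most abundant receptors were Ltb4r1, Ptgir and Ptger4 in all 4 groups. Ltb4r1, which lies on chromosome 14 from 55765962 to 55768494 (GRCm38), came first with means of 205 and 208 CPM per kilobase in control and Atg5-knockout bone marrow and of 219 and 181 in blood. Over the 12 libraries it averaged 203 CPM per kilobase, above 97.9% of the 14712 genes that passed the filter, and it made up 90.8% to 97.9% of the summed level of the 9 receptors. Ptgir and Ptger4 followed with 8.88 and 8.10 CPM per kilobase in control bone marrow, where their libraries overlapped, and 7.44 and 5.81 in Atg5-knockout bone marrow, where they did not. In control blood the pair again overlapped, at 2.15 and 2.09 CPM per kilobase. In Atg5-knockout blood Ptger4 was above Ptgir in every library, at 3.04 against 2.22 CPM per kilobase. Ptger4 shares 16.5% of its exon bases with other genes and Ptgir none, so that the level of Ptger4 is understated to the extent that reads there were not counted. Per kilobase of unshared exon, chosen after seeing the data, Ptger4 had 5.91 to 7.997 CPM in Atg5-knockout bone marrow, which overlaps the 6.86 to 8.38 CPM of Ptgir, and in Atg5-knockout blood it stayed above Ptgir in every library. By that measure the means of Ptger4 were also above those of Ptgir in control bone marrow, at 9.70 against 8.88, and in control blood, at 2.50 against 2.15, where the libraries overlapped. By the full exon length both stand near the middle of all tested genes, above 58.8% and 57.1% of them.

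The ranks below changed with tissue. In control bone marrow the order was Ptger2, Cysltr1, Ptgdr2 and Ptger3, from 0.903 down to 0.206 CPM per kilobase, with each overlapping the next. In control blood Ptgdr2 stood in the fourth place at 0.902 CPM per kilobase, in place of Ptger2, which was in the eighth place at 0.187. Cysltr2, Cysltr1, Ptger3 and Ptger2 overlapped one after another there. The place of Cysltr2 before the other 3 rested on control blood replicate 1, and without it, chosen after seeing the data, Cysltr2 stood at 0.145 CPM per kilobase, below Cysltr1 (0.269), Ptger3 (0.269) and Ptger2 (0.240). In Atg5-knockout blood Ptgdr2 was again in the fourth place, at 0.965 CPM per kilobase, and did not overlap Cysltr1 beneath it. The level of Ptgdr2 per kilobase is understated to the extent that reads on its shared exon bases were not counted.

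**Figure D4:**
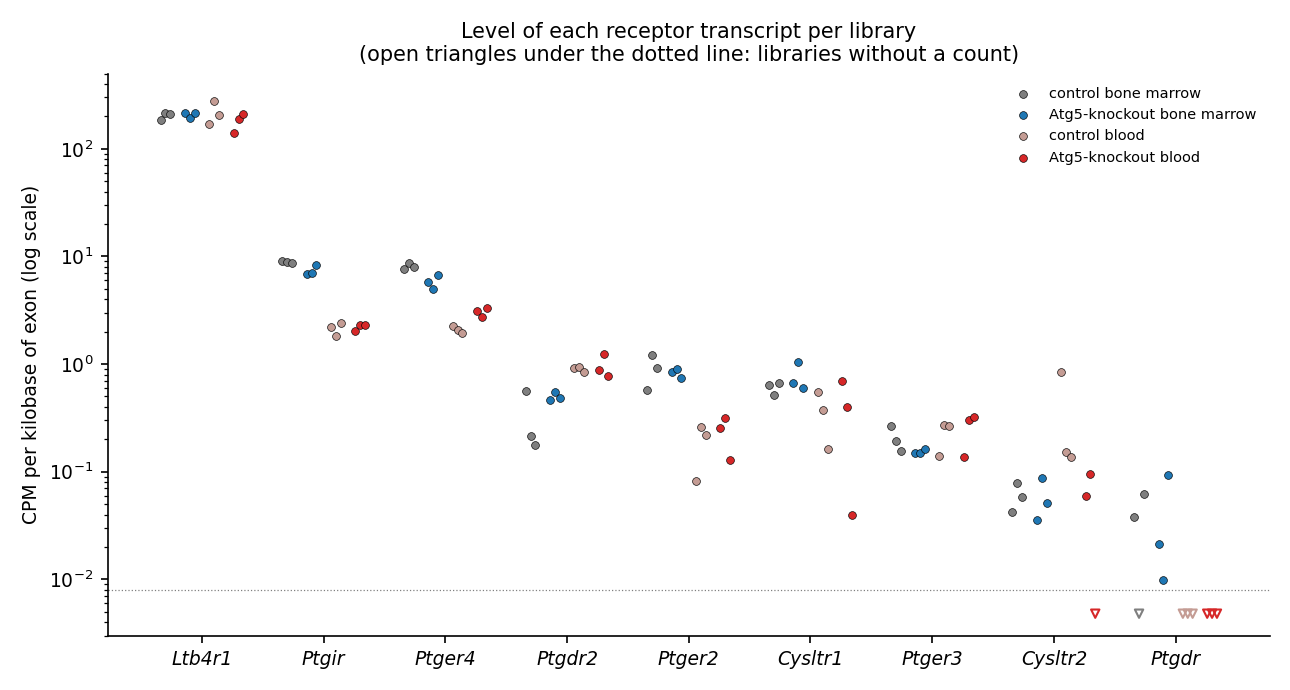
Expression per kilobase of exon in CPM, on a log axis, for the 9 receptors ordered by their mean over 12 libraries, with 1 point per library coloured by tissue and genotype. Ltb4r1 lies between 139.7 and 279 CPM per kilobase in all libraries, and open triangles mark the libraries in which Cysltr2 or Ptgdr had no count.

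By Pearson correlation of log2 CPM over the 12 libraries, which differ mainly by tissue, the genes most like Ptger4 were Igip, Set and Chek1 (r = 0.974, 0.966 and 0.965). Those most like Ptgir were Fbxo45, Amd1 and the granulocyte gene Mpo (r = 0.990, 0.988 and 0.985). Ltb4r1 was less closely matched, with Pdcl3, Mag and Cmc2 at r = 0.901, 0.878 and 0.878. Chek1, a cell cycle checkpoint kinase, had means of 17.4 CPM in control bone marrow and 0.612 CPM in control blood, and of 13.4 and 1.53 CPM in Atg5-knockout eosinophils.

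Of the 9 other eicosanoid receptor genes listed beside these, only 4 could be tested between the tissues. Ptger1, the calcium-coupled prostaglandin E2 receptor, was higher in blood, with 3.48 ± 0.628 against 0.682 ± 0.0187 CPM in control and 2.84 ± 0.785 against 0.584 ± 0.114 CPM in Atg5-knockout libraries (SD, n = 3). Its log2 fold changes were 2.33 (SE 0.37, adjusted p = 0.00189 from edgeR) and 2.29 (SE 0.40, adjusted p = 0.00159). Ptger1 thus rose where Ptger2 and Ptger4, which bind the same ligand, fell. Ltb4r2, the low-affinity leukotriene B4 receptor, fell by 0.86 (SE 0.22, adjusted p = 0.0167 from edgeR) in control and by 1.29 (SE 0.27, adjusted p = 0.0045) in Atg5-knockout eosinophils. The thromboxane receptor gene Tbxa2r fell by 2.71 (SE 0.88, adjusted p = 0.0411 from edgeR) in control eosinophils, from 145 to 15 counts over the groups. Tbxa2r did not pass the filter on low counts among the blood libraries alone. It was thus tested only through its bone marrow counts, and its call is no separate support for a lower level in blood. In Atg5-knockout eosinophils its value of -1.36 (SE 0.87) missed the threshold. There blood replicate 1 held 39 of the 44 counts of the group, and the group mean was 0.635 CPM with it and 0.116 CPM without it (a choice made after seeing the data), against 1.68 CPM in bone marrow. Fpr2, a receptor of lipoxins among other ligands, had group means between 19.6 and 34.4 CPM and no difference past the threshold. Ptgfr had 1 count and Gpr75 4 counts over the 12 libraries, while Oxgr1, Gpr17 and Gpr31b had none. No other receptor passed the threshold between genotypes, with 0 of 4 tested in bone marrow and 0 of 3 in blood.

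Genes that make, export or break down the ligands moved in both directions between the tissues. The counts of these and the following lists stand beside 34.2% of all tested genes called in control (16.2% higher, 18% lower) and 47.6% in Atg5-knockout eosinophils (23.5% higher, 24.1% lower). Without control blood replicate 1, 5926 of 14099 tested genes were called in control eosinophils, and the lists were not counted without it. Of 15 tested genes of synthesis and export, 5 were higher and 2 lower in blood in either genotype, or 46.7%, near the share of all genes in Atg5-knockout eosinophils. Alox5ap, which presents arachidonic acid to 5-lipoxygenase, rose by 1.197 (SE 0.22, adjusted p = 0.00385 from edgeR) in control and by 1.53 (SE 0.21, adjusted p = 0.0005) in Atg5-knockout eosinophils, and the thromboxane synthase gene Tbxas1 by 1.15 and 1.16. Ptgs2, the inducible cyclooxygenase, had 0.245 CPM in control and 0.0787 CPM in Atg5-knockout bone marrow and 6.15 and 15.04 CPM in blood. In Atg5-knockout eosinophils its log2 fold change was 7.50 (SE 0.59, adjusted p = 2.16e-05 from edgeR). Ptgs2 did not pass the filter on low counts among the bone marrow libraries alone. It was thus tested only through its blood counts, and its call is no separate support for a higher level in blood. Of 6 tested genes of breakdown and uptake, 2 were higher and 1 lower in control and 3 and 1 in Atg5-knockout blood, or 50.0% and 66.7% of a short list. Hpgd, which oxidises prostaglandins, rose by 3.20 in both genotypes (SE 0.56 and 0.26), and Ptgr1, an enzyme in the breakdown of prostaglandins and leukotriene B4, fell by 1.91 (SE 0.21) and 2.04 (SE 0.26).

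Downstream of the receptors, the lists of signalling proteins and of genes that cyclic AMP induces were counted in the same way. Of 17 tested genes of Gs and cyclic AMP signalling, 3 were higher and 1 lower in control blood and 6 and 2 in Atg5-knockout blood. These are 23.5% and 47.1% of the list, at or below the 34.2% and 47.6% of all tested genes. Rapgef3, a cyclic AMP sensor also called Epac1, fell by 3.67 (SE 0.82, adjusted p = 0.00816 from edgeR) in control and fell by 5.18 (SE 0.92, adjusted p = 0.00162) in Atg5-knockout eosinophils, and the CREB coactivators Crtc2 and Crtc3 rose by 0.61 to 0.64. Rapgef3 did not pass the filter on low counts among the blood libraries alone. It was thus tested only through its bone marrow counts, and its calls are no separate support for a lower level in blood. Of 17 tested genes of Gi, Gq and calcium signalling, 6 and 7 were higher and 1 was lower in each genotype, or 41.2% and 47.1%, near the shares of all genes. Pik3r5, a subunit of the kinase that Gi-coupled receptors engage, was among those higher, at 1.36 (SE 0.21) and 1.73 (SE 0.16). Of 13 tested genes of receptor desensitisation, 5 were higher and 1 lower in control and 8 higher and 0 lower in Atg5-knockout blood, or 46.2% and 61.5%. Rgs1, which shortens Gi signalling, rose by 4.99 (SE 0.54, adjusted p = 0.000276 from edgeR) and 6.11 (SE 0.26, adjusted p = 8.69e-07).

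Of the 17 tested genes that cyclic AMP is known to induce, 13 were higher and 0 lower in control blood and 16 were higher and 0 lower in Atg5-knockout blood, where 16.2% and 23.5% of all tested genes were higher. The medians of their log2 fold changes were 3.25 and 3.50, beside -0.0029 and -0.010 over all tested genes. Of these 17, Fosb did not pass the filter on low counts among the bone marrow libraries alone and was tested only through its blood counts. Nr4a1, a nuclear receptor, rose by 5.47 (SE 0.41) and 5.79 (SE 0.24), and Per1, a clock gene, by 3.98 (SE 0.18, adjusted p = 6.99e-06 from edgeR) in control eosinophils. Pde4b, a phosphodiesterase that degrades cyclic AMP, rose by 3.37 (SE 0.32, adjusted p = 0.00012 from edgeR) in control eosinophils, and Egr1 and Junb rose by 3.55 and 3.50 in Atg5-knockout eosinophils. Many of these genes, Fos, Junb, Egr1 and Dusp1 among them, are immediate early genes that handling of cells and other stimuli also induce, and tissue and handling cannot be told apart for them.

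**Figure D5:**
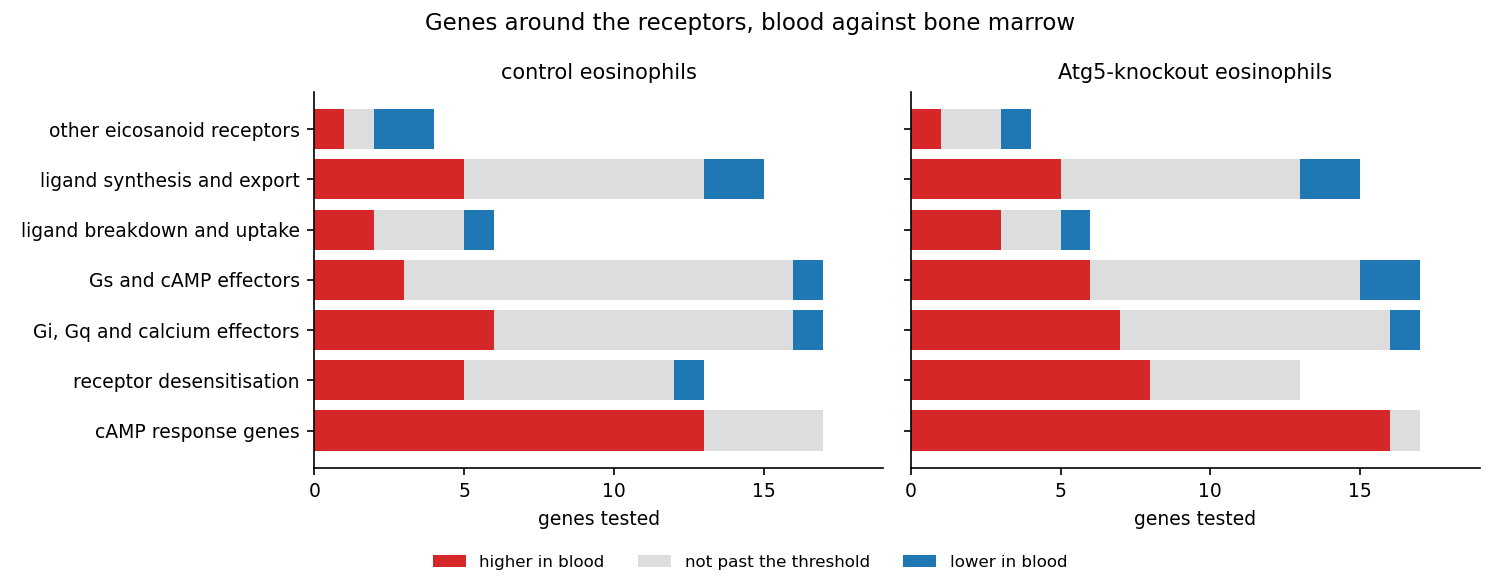
Number of tested genes in 7 lists around the receptors, on the horizontal axis, that were higher in blood, not past the threshold or lower in blood, at an adjusted p under 0.05 of edgeR, for control eosinophils on the left and Atg5-knockout eosinophils on the right. Genes that cyclic AMP induces were higher in blood in 13 and 16 of 17 cases and lower in none, where 16.2% and 23.5% of all tested genes were higher.

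Between genotypes, 2 of the 86 tested genes of these 7 lists passed the threshold in bone marrow, where 0.348% of all tested genes did, and 0 of 85 in blood, where 0.0371% did. Lta4h, which makes leukotriene B4, the ligand of Ltb4r1, fell by 0.53 (SE 0.10, adjusted p = 0.0385 from edgeR) in Atg5-knockout bone marrow, from 645 to 455 CPM. Its value in blood was -0.99 (SE 0.24, unadjusted p = 0.003, adjusted p = 1). Pde3b, a phosphodiesterase that cyclic GMP inhibits, fell by 0.69 (SE 0.11, adjusted p = 0.0236 from edgeR) in bone marrow, from 96.1 to 60.6 CPM, beside a value of 0.17 (SE 0.32) in blood. Ltb4r1 itself was at 285 ± 22.8 and 290 ± 15.5 CPM in the same bone marrow libraries (SD, n = 3). Over the tested genes of the list, the median log2 fold change of the genes that cyclic AMP induces was 0.0028 in bone marrow and 0.30 in blood.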

How the data were processed

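The authors deposited 1 table of raw read counts for 53801 Ensembl genes in 12 mouse libraries (3 control and 3 Atg5-knockout libraries each from bone marrow and blood). Per the file headers and the submitters' notes, single-end reads from a stranded mRNA kit were aligned with HISAT2 2.2.1 and counted with featureCounts 2.0.1 at exons of Ensembl release 92 (GRCm38), without the strand option, so that reads touching several genes and multiply aligned reads were dropped. The study's methods name a later Ensembl release, and coordinates are printed as the table gives them. No column of values was left unused. Symbols came from the given gene name table (49674 ids matched).

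From these counts, edgeR 4.0.16 (R 4.3.3) fitted each contrast of 2 groups on all genes (TMM, filterByExpr with minimum count 10 and minimum total 15, quasi-likelihood test, Benjamini-Hochberg over all genes tested, threshold 0.05), and the difference between tissues on all 12 libraries. CPM used TMM factors of all 12 libraries. SE is the size of the log2 fold change fitted without a prior count, divided by the root of F. The log2 fold changes printed carry a prior count of 0.125. Alternatives were DESeq2 1.42.0, limma-voom 3.58.1, other scalings and filters, a fit of 12 libraries, a replicate block and each library left out, and the scripts were tested on simulated data. Intervals and floors cover counting error only, at 18885052 to 30270166 counts per library.

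The 9 receptors, the pathway lists and the marker lists were chosen with earlier results of these data known. Genes named are all receptors, all other eicosanoid receptors, at most 3 called genes of lowest p per list and comparison, the most abundant eosinophil marker and the 3 genes most correlated with each of the 3 most abundant receptors (log2 CPM, prior count 2). Deviations from group means of same-numbered blood libraries of the 2 genotypes correlated at 0.499, 0.208 and 0.298, against -0.408 to 0.137 for unlike numbers. These libraries may thus form pairs, but no label states it. The main fits did not use the numbers, and the replicate block did. For bone marrow the same check gave -0.147, -0.105 and 0.00414, and the libraries share only a number. Motifs were searched in RefSeq promoter stretches (GRCm38.p6), on both strands.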

Additional observations from a re-analysis of the deposited data

Results flagged for a closer look

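Ptger4, the prostaglandin E2 receptor gene, was picked out because every Atg5-knockout library was below every control library in bone marrow and above every control library in blood. Groups that do not overlap were found in 14.4% of all tested genes in bone marrow and in 7.58% in blood. The share with opposite directions in the 2 tissues was not counted. The difference between the 2 effects was 1.02 on the log2 scale (SE 0.21). It comes from the same values that picked out Ptger4 and is no separate support. It did not pass adjustment over all genes in edgeR (adjusted p = 0.739) and passed in DESeq2 (adjusted p = 0.0344). Over 17 alternatives it lay between 0.91 and 1.13, with adjusted p-values from 0.0344 to 1.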

How the results depend on the processing

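Of 435 log2 fold changes of the receptors under alternatives, 387 kept their direction and side of the threshold, and of the 105 for called receptors none changed sign and 10, all of Ptgdr2 in Atg5-knockout eosinophils, lost the call. Between genotypes in bone marrow 1 receptor passed with DESeq2 and 1 without the low-count filter (Ptger4 in both), and 1 passed for the difference between tissues with DESeq2. Between tissues 5 receptors passed in control eosinophils with DESeq2, where 5359 of 24276 genes did. With a log2 fold change beyond 2, 0 passed in Atg5-knockout eosinophils. With 1 library left out the counts ranged from 3 to 5 in both genotypes, 5 being reached without blood replicate 1 of the genotype. Calls over all genes rose there too, from 4678 of 13669 to 5926 of 14099 in control and from 6592 of 13853 to 7756 of 14277 in Atg5-knockout eosinophils. Scaling by total counts alone moved the median of all genes by -0.31 in control and -0.24 in Atg5-knockout eosinophils, so that 1308 genes were higher and 3906 lower in control blood (2212 and 2466 with TMM), and 2258 and 4333 in Atg5-knockout blood (3256 and 3336 with TMM). Under that scaling, with and without red cell genes, Ptger3 in control eosinophils was at -0.18 and -0.12, Ltb4r1 at -0.22 and -0.15, and Ltb4r1 between genotypes in bone marrow at 0.0247 and 0.0283. The fit of 12 libraries gave 0.0248 for the last. With 1 library left out, signs turned for values near 0. In bone marrow these were Ltb4r1 (-0.0752 to 0.0463) and Ptger2 (-0.39 to 0.14). In blood they were Ptgdr2 (-0.11 to 0.25), Ptger2 (-0.029 to 0.63), Ptger3 (-0.0688 to 0.47), Ptgir (-0.0421 to 0.16) and Cysltr1 (-0.71 to 0.62). Between tissues in control eosinophils they were Ptger3 (-0.0465 to 0.37) and Ltb4r1 (-0.12 to 0.24). Cysltr1 in blood was at -0.32 with limma-voom and at -0.28 with the replicate block. In the fit of blood with the replicate block 10 genes passed in place of 5, none of them a receptor (Ptger4 adjusted p = 0.575 from edgeR). The block took all-gene calls from 48 to 23 in bone marrow, and between tissues it ended the call of Ptgdr2 in Atg5-knockout eosinophils (adjusted p = 0.107) and gave one in control eosinophils (adjusted p = 0.0389). The cause of these changes was not tested. Without the low-count filter 119 genes passed for the difference between tissues and 420 between genotypes in bone marrow. Depth limits Ptgdr, Cysltr2, Ptger3 and blood Ptger2, which had at most 40 counts in any blood library.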
